A study of Saccharomyces cerevisiae with 328 samples.

Results

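GAP1, DAL2 and DUR1,2 (also written DUR12) are genes of budding yeast, Saccharomyces cerevisiae, for the uptake and breakdown of poor nitrogen sources. They were chosen by name, from earlier results of these same data, and are 3 of the 4922 genes that had any value. PolyA RNA was sequenced from 328 strains that each lacked 1 gene, and every value is a log2 ratio of the strain to the wild type, so 1 is a 2-fold higher and -1 a 2-fold lower mRNA. Each strain had 1 library, taken from cells in exponential growth in a liquid medium; no source used here gives its nitrogen source. The libraries labelled as deletions of URE2, RPS10B and DAL81 are shown in full because the choice of the genes rested on them. Since each is a single library, its values carry no replicate check and no test is given for them.

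The remaining strains were grouped by the function of the deleted gene. Ribosomal proteins were missing in 17 strains for the small subunit and in 14 for the large one. Another 3 lacked GTR2, MEH1 or MTC5, members of the EGO and SEA complexes, which relay amino acid signals to the kinase TORC1. A further 9 lacked a factor for traffic from endosome to vacuole, 7 a factor for traffic from endosome to Golgi, and 6 a subunit of Mediator, the complex that links activators to RNA polymerase II. The Elongator and URM1 pathways, which modify transfer RNA, were represented by 6 strains, and mitochondrial gene expression and fatty acid synthesis by 10. All other deletions, the largest group, served as the reference. Different strains of a class stand in for replicates, so an error over a class includes real differences between its strains. The depth of the libraries is unknown.

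Yeast cells given a good nitrogen source keep such genes silent, a regulation called nitrogen catabolite repression. Ure2 then holds the activators Gln3 and Gat1, which bind GATA sequences, in the cytoplasm; without Ure2 they enter the nucleus and turn on genes for scavenging nitrogen. GAP1 encodes the general amino acid permease of the plasma membrane. DAL2 encodes allantoicase, which cleaves allantoate on the path from allantoin to urea, and DUR1,2 encodes urea amidolyase, which turns urea into ammonia. Dal81 is a further activator, needed when genes for allantoin, urea and GABA use are induced.

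The promoters are shown because the GATA factors act through them. Each line gives the 300 bases, out of the 600 before the annotated start of the gene, that hold the most matches to GATAAG on either strand. Sequences and coordinates are from the RefSeq R64 genome, since the deposited tables carry no coordinates, and run 5′ to 3′ on the strand of the gene. Capitals mark GATAAG, or CTTATC where the match lies on the opposite strand. GAP1 (YKR039W) lies on chromosome XI, from 515063 to 516871 on the plus strand, DAL2 (YIR029W) on chromosome IX, from 410807 to 411838 on the plus strand, and DUR1,2 (YBR208C) on chromosome II, from 636703 to 642210 on the minus strand. The GAP1 window is chrXI:514594-514893, from 469 to 170 bases before the start. The DAL2 window is chrIX:410507-410806, the 300 bases next to the start. The DUR1,2 window is chrII:642432-642731, beginning 521 bases before the start.
GAP1: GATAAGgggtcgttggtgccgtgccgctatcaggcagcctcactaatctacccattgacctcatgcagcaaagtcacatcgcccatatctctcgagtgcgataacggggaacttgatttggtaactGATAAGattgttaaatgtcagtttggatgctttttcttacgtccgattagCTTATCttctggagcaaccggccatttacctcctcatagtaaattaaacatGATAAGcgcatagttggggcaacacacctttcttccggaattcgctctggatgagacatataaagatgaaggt
DAL2: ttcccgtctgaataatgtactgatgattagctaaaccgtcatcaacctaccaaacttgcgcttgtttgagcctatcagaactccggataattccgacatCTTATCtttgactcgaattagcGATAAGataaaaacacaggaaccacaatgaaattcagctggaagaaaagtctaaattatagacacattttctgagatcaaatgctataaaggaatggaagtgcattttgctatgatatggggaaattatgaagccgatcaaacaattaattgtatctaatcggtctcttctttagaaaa
DUR1,2: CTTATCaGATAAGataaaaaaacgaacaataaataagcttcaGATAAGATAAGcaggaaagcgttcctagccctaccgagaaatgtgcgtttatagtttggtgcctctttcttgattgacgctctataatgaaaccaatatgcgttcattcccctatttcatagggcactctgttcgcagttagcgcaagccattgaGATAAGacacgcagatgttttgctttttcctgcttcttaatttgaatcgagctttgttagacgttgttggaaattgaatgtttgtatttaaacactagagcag

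In the 600 bases GAP1 held 5 matches, DUR1,2 held 5 and DAL2 held 2. Of 5999 promoter windows of this length in the genome, 26.8% held at least 1 match, 4.92% at least 2 and 0.117%, which is 7 genes, at least 5. In DUR1,2 a pair of the matches overlaps by 1 base. Among other nitrogen genes that come up below, AGP1 held 2 matches, while GDH2 and CAR1 held none in this window. A match is only a stretch of letters, and binding was not measured.

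**Figure D1:**
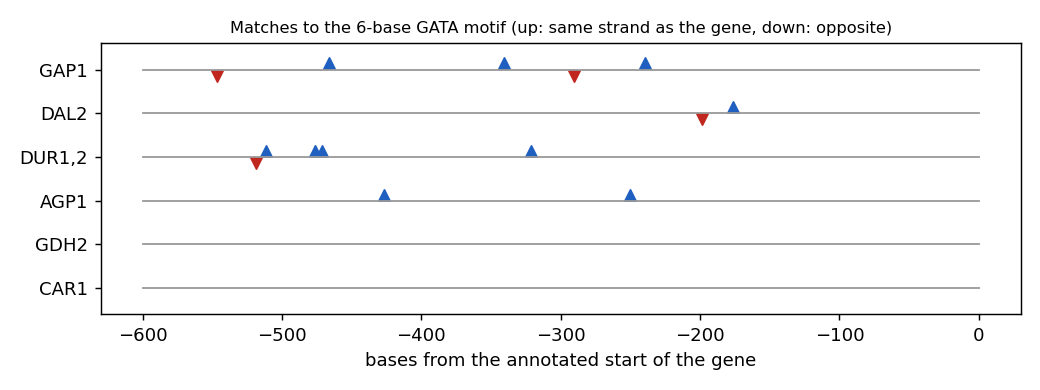
Positions of GATAAG matches in the 600 bases before the annotated start of 6 nitrogen genes, in bases from the start; triangles pointing up are on the strand of the gene and those pointing down on the opposite strand. GAP1 and DUR1,2 each hold 5, DAL2 and AGP1 each 2, and GDH2 and CAR1 none.

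The labels of the libraries were checked first, by the mRNA of the deleted genes. The label RPS10B went against this mRNA, and the label URE2 was not clearly borne out by it. In the library labelled RPS10B, RPS10B itself stood at 0.51, with 190 libraries lower, while URE2 stood at -2.12, the lowest of all 328 libraries (median of the others -0.27). URE2 stood at -0.65 in the library that carries its name, with 64 libraries lower, and at -0.33 relative to the median gene of that library. RPS10B stood at 0.72 there. RPS10A and RPS10B encode nearly identical proteins of the small subunit and may share reads, so RPS10B is a weak check; RPS10A stood at 1.01 in the library labelled RPS10B and at 0.83 in that labelled URE2. The DAL81 mRNA stood at -1.63 in the library labelled DAL81, with 1 of 325 libraries lower. URE2 mRNA was thus lowest in a library that does not carry its name. These values leave it possible that the labels of the libraries labelled RPS10B and URE2 were exchanged, which was not tested. Each library is called by its label, and every value below under these labels is a value of the library, not of a known deletion.

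GAP1, DUR1,2 and DAL2 mRNA were all high in the library labelled RPS10B and all low in that labelled URE2. These values chose the genes and are given as a description. The permease gene GAP1 stood at 4.91 in the library labelled RPS10B, 30.0-fold the wild type and the highest of 313 libraries. Urea amidolyase, DUR1,2, stood at 3.10 there, 8.56-fold the wild type and the highest of 326. Allantoicase, DAL2, stood at 1.26, with 8 of 286 libraries higher. The next highest GAP1 value of any library was 3.18 and the next highest DUR1,2 value 2.26, so both genes stood clear of all other strains, and DAL2 did not.

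In the library labelled URE2, GAP1 stood at -1.02 and DAL2 at -1.08, each the lowest of all libraries with a value. DUR1,2 stood at -1.02, with 7 libraries lower. The gaps below were narrow: the next lowest GAP1 value was -0.99, and the next lowest DAL2 value -1.06. GAP1 and DUR1,2 had nearly the same value in this library, -1.0231 and -1.0227. They also did in some others, such as those labelled SAC1 (0.7997 and 0.8002) and ZRC1 (0.4476 and 0.4480). The number of reads behind these values is unknown, so whether the lowest ones rest on few reads was not tested. The median gene of this library stood at -0.32, and relative to that median the members stood at -0.70 (GAP1), -0.76 (DAL2) and -0.70 (DUR1,2). GAP1 stood at -0.28, DAL2 at 0.57 and DUR1,2 at -0.03 in the library labelled DAL81. None of these lay at an edge of the other libraries: 39 had lower GAP1, 44 had higher DAL2, and DUR1,2 lay at the median of the others, -0.03.

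As background, 6.30% of all genes tested stood at 1 or above in the library labelled RPS10B, which all of the members did, and 14.4% at -1 or below. In that labelled URE2, where all of the members stood at -1 or below, 16% of genes did so, and 5.52% stood at 1 or above. The shares for the library labelled DAL81 were 6.71% and 6.44%, with no member past either. Taken relative to the median of each gene in the other libraries, all of the members stayed past 1 in the library labelled RPS10B, where 4.31% of genes stood at 1 or above and 5.58% at -1 or below. In that labelled URE2 GAP1 alone then stayed past -1, at -1.34, while DAL2 and DUR1,2 lay just short of it, with 7.36% of genes at -1 or below and 3.48% at 1 or above. In that labelled DAL81 the shares were 4.64% at 1 or above and 1.66% at -1 or below. The members were picked on these libraries, so nothing is read from these counts.

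**Figure D2:**
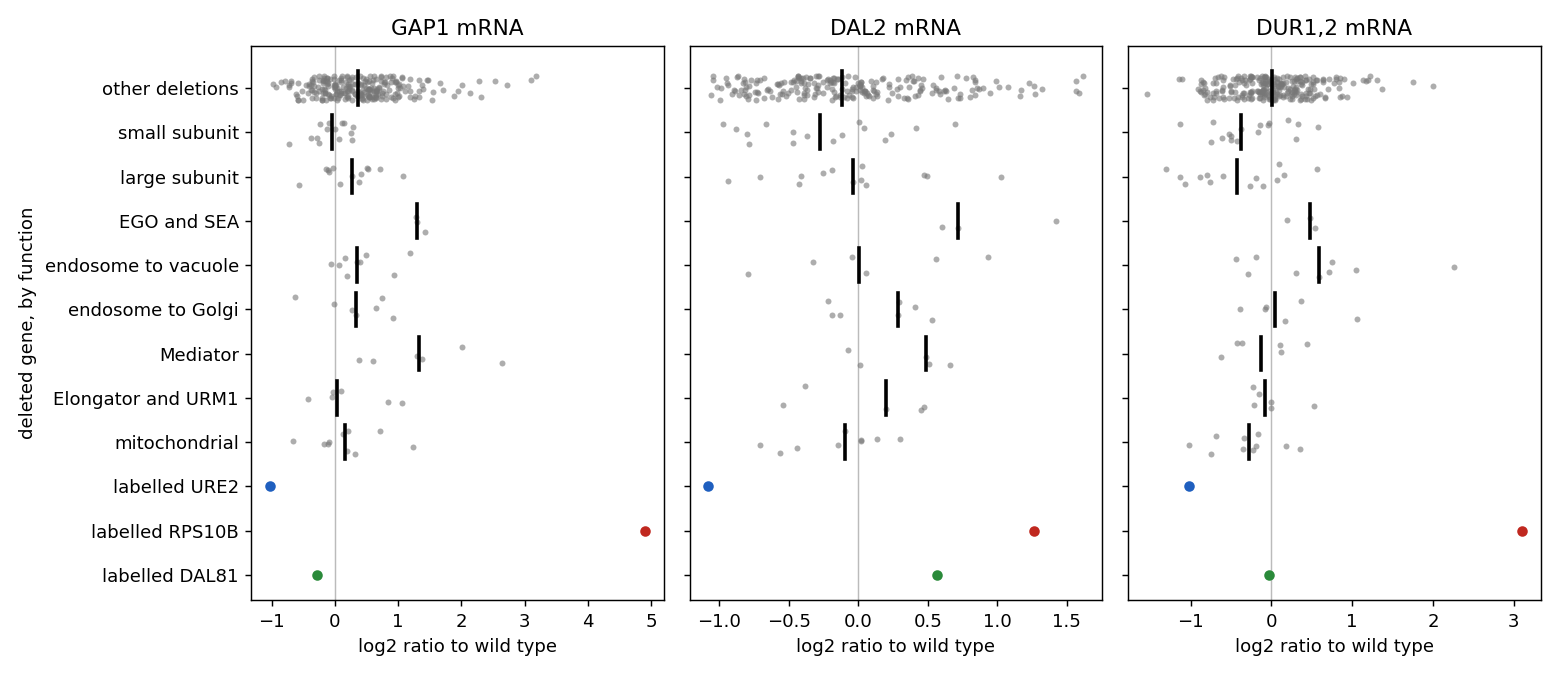
Log2 ratio to wild type of GAP1, DAL2 and DUR1,2 mRNA, 1 point per library, by the function of the deleted gene; black lines are group medians and coloured points the libraries labelled URE2, RPS10B and DAL81. The library labelled RPS10B is the highest for GAP1 (4.91) and DUR1,2 (3.10) but not for DAL2 (1.26), and that labelled URE2 is the lowest for GAP1 and DAL2.

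Other genes of nitrogen use were read from a list of 45, of which 28 had a value in at least 80% of the libraries, 14 had no value and 3 had some. The list was written with earlier results of these data known. The 14 without a value include the allantoin and ureidosuccinate permease DAL5, the urea transporter DUR3, the ammonium permease MEP2 and the repressor DAL80, so no statement is made about them. In the library labelled RPS10B, 10 of the 28 stood at 1 or above. Without the members, which were chosen on this library, 7 of 25 did, against 6.30% of all genes. The gene at -1 or below was URE2 itself, where 14.4% of all genes stood at -1 or below. Of the list, 23 of 28 were above their median in the other libraries, and without the members 20 of 25. The median difference of all genes from their own medians was -0.15 in that library. The median of the list was 0.66 there, against -0.27 for all genes.

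Among the transporters, AGP1, a broad amino acid permease, stood at 3.30 in the library labelled RPS10B, the highest of all libraries (median of the others 0.01). CAN1, the arginine permease, stood at 1.88, also the highest, where the other libraries had a median of -1.13. DIP5, the permease for acidic amino acids, stood at 1.40, with 1 library higher. PTR2, which takes up small peptides, stood at 0.48, with 9 libraries higher. The ammonium permease MEP3, at -0.02, and the oligopeptide transporter OPT1, at -0.85, lay among the other libraries. No transporter stood at 1 or above in the library labelled URE2; AGP1 was at -0.01 and CAN1 at -0.75.

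Among the breakdown enzymes, GDH2, which releases ammonia from glutamate, stood at 4.94 in the library labelled RPS10B, the highest of 326 libraries and above GAP1. CPS1, a vacuolar carboxypeptidase, stood at 0.60, again the highest, against a median of -1.14. UGA1 and UGA2, which convert GABA to succinate, stood at 0.81 and 1.30, with 2 and 30 libraries higher. The arginase gene CAR1 stood at 0.42, with 16 libraries higher, although the arginine permease CAN1 was at its maximum. DCG1, which lies next to DAL2 and was valued in 190 libraries, stood at 1.34, with 1 library higher. PUT2, of proline breakdown, and the asparaginase gene ASP1 stood at -0.19 and -0.61, within the range of the other libraries.

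Among the assimilation genes, GLN1, which makes glutamine from ammonia and glutamate, stood at 0.97 in the library labelled RPS10B, the highest of 328 (median of the others -0.72). GLT1, glutamate synthase, stood at 1.06 there, at 0.83 in the library labelled URE2 and at 1.06 in that labelled DAL81. These 3 libraries all ranked near the top for GLT1, with 4, 10 and 3 libraries higher, so it did not follow the members. GDH1, which makes glutamate, lay at -0.49, -0.83 and -0.45.

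Among the regulators, the activator GAT1 stood at 2.21 in the library labelled RPS10B, with 1 library higher, at -0.21 in that labelled URE2, with 314 higher, and at 1.87 in that labelled DAL81. GAT1 was above 0 in most strains, with a median of 0.94. The activator GLN3 stood at 0.71, -0.82 and 0.97, again lowest in that labelled URE2. The repressor GZF3 stood at -0.73 in the library labelled URE2, with 321 libraries higher. UGA3, the activator of GABA genes, stood at 2.15 in the library labelled DAL81, 1.68 above its median and with 1 library higher. UGA1 was at 0.10 there, 0.50 above its median and with 43 libraries higher. NPR1, a kinase that keeps amino acid permeases at the cell surface, stood at -0.12, -0.88 and 0.90 in the libraries labelled RPS10B, URE2 and DAL81.

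Across the list, the library labelled URE2 had 0 of 28 genes at 1 or above, against 5.52% of all genes, and 5 at -1 or below. Without the members, which were chosen on this library, 2 of 25 were at -1 or below, against 16% of all genes. The order turned when each gene was taken relative to its median in the other libraries. Then 4 of 25 were at -1 or below, against 7.36% of all genes, and 1 of 25 was at 1 or above, against 3.48%. The 8 regulators valued in at least 80% of the libraries all lay below their medians there, where the median difference of all genes from their own medians was -0.22. DAL82, an activator of the allantoin genes valued in fewer libraries, stood the other way, at 1.15, 0.93 above its median and with 8 libraries higher. The library labelled DAL81 had 3 of 28 at 1 or above and 3 at -1 or below, against 6.71% and 6.44% of all genes.

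**Figure D3:**
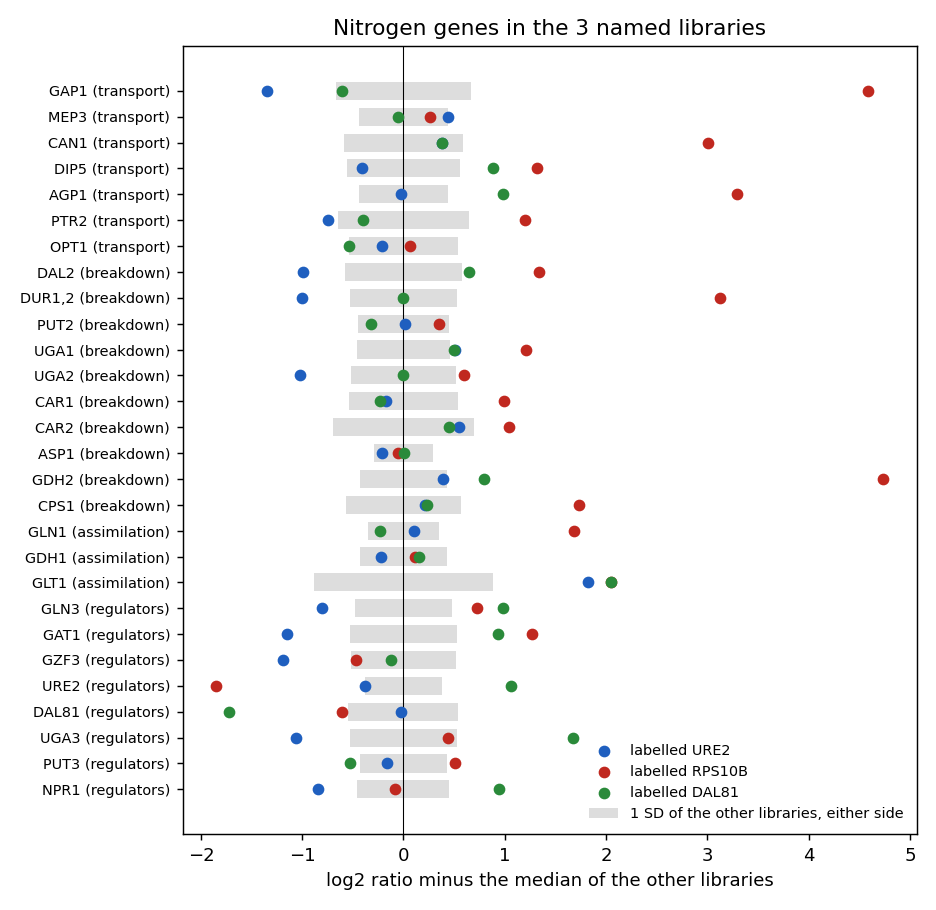
Log2 ratio of 28 nitrogen genes in the libraries labelled URE2 (blue), RPS10B (red) and DAL81 (green), each minus the median of the gene in the other libraries; grey bars span 1 SD of the other libraries on either side. GAP1, CAN1, AGP1, DUR1,2 and GDH2 stand at least 3 log2 units above the median in the library labelled RPS10B, where URE2 is the gene furthest below it.

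Beyond the nitrogen list, the highest genes of the library labelled RPS10B were GDH2, GAP1, MET6 (4.78), MET5 (3.43), AGP1, SNZ1 (3.17), DUR1,2 and MET28 (3.07). MET6, MET5 and MET28 serve methionine and sulfate metabolism and SNZ1 serves vitamin B6 synthesis; MET6 was high in most libraries, with a median of 2.21. In the library labelled URE2 the highest were MET6 (3.94), YNR034W-A (3.34), the glycolytic gene TDH1 (3.32), the glycogen synthase gene GSY2 (3.19), the daughter cell gene DSE2 (3.10), SPI1 (2.98), YJL133C-A (2.87) and the zinc transporter gene ZRT1 (2.77), none of them a nitrogen gene. In that labelled DAL81 they were SNZ1 (5.99), MET10 (3.87), MET6 (3.81), TMT1 (3.80), YAT2 (3.59), CIT2 (3.50), ZRT1 (3.44) and MET28 (3.43). Nitrogen genes led only the library labelled RPS10B of these. The lowest genes were much the same in each: FIT3 and YDR524C-A were among the 4 lowest of all 3 libraries, and their medians over the other libraries were -2.64 and -2.60. ARE2 and FIT2 completed the 4 lowest in that labelled URE2, FRE1 and ARE2 in that labelled RPS10B, and CTR1 and FRE1 in that labelled DAL81.

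URE2 mRNA itself did not order GAP1 across the remaining strains. Over 310 libraries without the named ones, Pearson's r between URE2 and GAP1 was -0.13, and it was 0.00 after subtracting the mean of each library group described below. The strain without YCL062W had URE2 at -1.28 and GAP1 at 3.10, near the library labelled RPS10B in direction, while that without UBR1 had URE2 at -0.17 and GAP1 at 3.18. High GAP1 thus occurred at low URE2 and near its median. These correlations are given without a test.

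**Figure D4:**
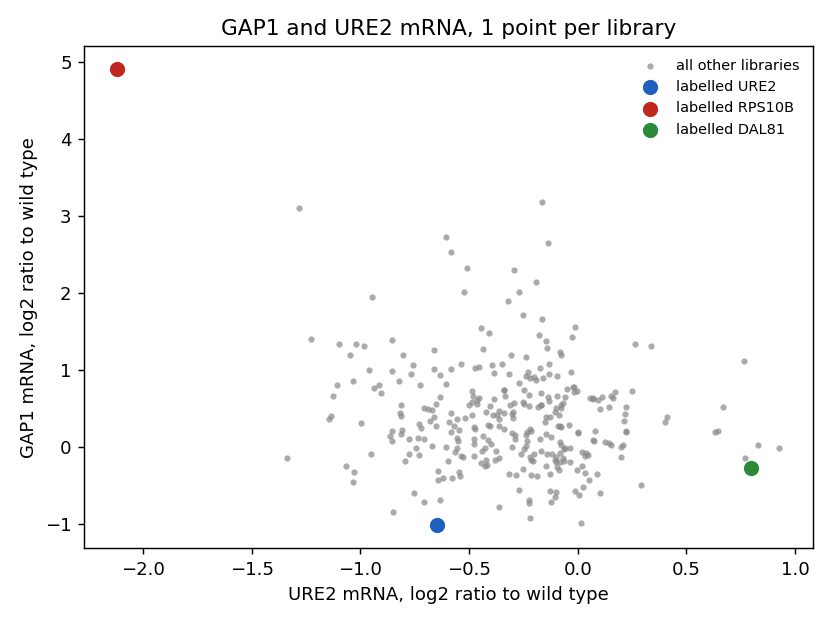
GAP1 against URE2 mRNA, both as log2 ratio to wild type, 1 point per library. The library labelled RPS10B stands alone at -2.12 for URE2 and 4.91 for GAP1, and that labelled URE2 lies at -0.65 and -1.02.

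Over all strains GAP1 was the most variable of the members and the one most often high. It was valued in 313 libraries and ran from -1.02 to 4.91, with a median of 0.32 and an SD of 0.72; it stood at 1 or above in 48 and at -1 or below in 1. DAL2 was valued in 286 libraries, with 42 empty, and ran from -1.08 to 1.62, with a median of -0.08 and an SD of 0.58; 15 were at 1 or above and 5 at -1 or below. DUR1,2 was valued in 326 libraries and ran from -1.54 to 3.10, with a median of -0.03 and an SD of 0.56; 13 were at 1 or above and 9 at -1 or below.

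The libraries fell into 4 groups by their overall profile, found from the values and not named by the labels, and the members differed between them. Median GAP1 was 0.54, 0.55, 0.03 and 0.19 in the groups of 80, 73, 96 and 79 libraries. Median DAL2 was -0.29, -0.19, -0.22 and 0.41, and median DUR1,2 was 0.11, -0.03, -0.14 and 0.04. DAL2 was empty in 14, 16, 12 and 0 libraries of these groups, so it was both higher and always valued in the fourth. The libraries labelled URE2, RPS10B and DAL81 all belonged to the third. Whether these groups are technical or biological was not tested.

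The strains with the highest GAP1 after the library labelled RPS10B lacked UBR1 (3.18), YCL062W (3.10), CDC73 (2.73) and SRB8 (2.65). UBR1 encodes a ubiquitin ligase, CDC73 a subunit of the Paf1 elongation complex and SRB8 a Mediator subunit. In the strain without UBR1, DAL2 stood at 0.28 and DUR1,2 at -0.15, so GAP1 was high there without the other members. In that without YCL062W, DUR1,2 stood at 1.37 and DAL2 at 0.59. Without another Paf1 subunit, RTF1, GAP1 stood at 2.29 and DUR1,2 at 1.19, but without LEO1, also of Paf1, GAP1 stood at 0.57 and DUR1,2 at -0.08. The strains with the lowest GAP1 after the library labelled URE2 lacked SLM6 (-0.99), HST3 (-0.93), SWI5 (-0.85) and DST1 (-0.79).

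DUR1,2 was highest, after the library labelled RPS10B, without VPS8 (2.26), CTK1 (2.00), SIN3 (1.75) and YCL062W (1.37). VPS8 serves endosome to vacuole fusion, CTK1 is a kinase of the RNA polymerase II tail, and SIN3 is the scaffold of the Rpd3 histone deacetylase. The strain without SIN3 also had GAP1 at 2.53 and CAR1 at 1.91, the highest CAR1 of all libraries. CTK1 itself stood at 0.81 in the library labelled CTK1, so this label is not borne out by its own mRNA. DUR1,2 was lowest without SSF1 (-1.54), RPL9A (-1.30), ISC1 (-1.15), RPP2B (-1.14) and RPS29A (-1.13). SSF1 serves ribosome assembly, and RPL9A, RPP2B and RPS29A encode ribosomal proteins, while ISC1 encodes a phospholipase of sphingolipids.

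DAL2 was highest without SLA1 (1.62), UBP3 (1.59), RFU1 (1.57), GSH1 (1.57) and MEH1 (1.42). SLA1 acts in endocytosis, UBP3 removes ubiquitin and RFU1 regulates free ubiquitin, GSH1 starts glutathione synthesis, and MEH1 belongs to the EGO complex. In the libraries labelled UBP3 and GSH1 the deleted genes stood at -0.01 and -0.23, which is not lowered past -0.5. After the library labelled URE2, DAL2 was lowest without LEM3 (-1.06), GYP1 (-1.05), SEC66 (-1.04) and DRS2 (-1.02). LEM3 and DRS2 encode parts of lipid flippases. The strain without SEC66 had GAP1 at 1.33, so the members also parted there.

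Whole chromosomes stood apart in 17 libraries, by a median over 0.4 from the rest of the library. The strain without SRB8 had chromosome XI, which carries GAP1, raised by 0.94, and that without RPS27B had it raised by 0.83; GAP1 stood at 2.65 in the first and at -0.09 in the second. Chromosome IX, which carries DAL2, was raised without LRP1 (0.90), RPS24A (0.76), UBP3 (0.63) and CTF18 (0.50). DAL2 stood at -0.72, 0.70, 1.59 and -0.77 in these. The libraries with chromosome XIV raised, without RCY1, ILM1 or MNR2, had DUR1,2 at 1.05, 1.17 and 1.30 although that gene lies on chromosome II. URE2, on chromosome XIV, stood at 0.93, 0.83 and 0.76 in them. The libraries with chromosome V raised, without SWI6 or SIN3, had GAP1 at 2.32 and 2.53. These strains were singled out after their values were seen, and the part of the chromosomes in the values was not tested.

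The classes of deletions were then compared with the other deletions, in which GAP1 was 0.41 ± 0.68 (SD, 11 libraries empty), DAL2 -0.05 ± 0.60 (SD, 34 empty) and DUR1,2 0.02 ± 0.51 (SD, 1 empty). This asks whether deletions of one function move the members together. The libraries labelled URE2, RPS10B and DAL81 were left out. No member passed the limma test (adjusted p below 0.05 over 4499 genes) in any of the 8 classes. Few genes did: 1.02% in the small subunit class, 0.200% in the large subunit, 0.0889% in EGO and SEA, 0.0445% in endosome to vacuole, 0.156% in endosome to Golgi, 0.0667% in Mediator, 0.00% in Elongator and URM1, and 0.0222% in the mitochondrial class. With the same limma test, 3.73% of genes had an unadjusted p under 0.05 in the Elongator and URM1 class. Over the classes this share ran from 2.36% (mitochondrial) to 15.2% (small subunit). By chance alone a p under 0.05 is met by a share of 0.05, above those of the mitochondrial and the Elongator and URM1 classes. The 1.02% called in the small subunit class became 3.05% with the library group as a term, and ran from 0.489% without RPS11A to 2.18% without RPS19B when 1 strain was left out.

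By medians, GAP1 ran from Mediator (1.34) and EGO and SEA (1.31), through the other deletions (0.37), endosome to vacuole (0.36), endosome to Golgi (0.34), large subunit (0.28) and mitochondrial (0.16) classes, to Elongator and URM1 (0.04) and the small subunit (-0.05). The ranges of neighbours in this order overlapped throughout. For DAL2 the highest class median was that of EGO and SEA (0.72) and the lowest that of the small subunit (-0.28). For DUR1,2 the highest was endosome to vacuole (0.58) and the lowest the large subunit (-0.43), followed by the small subunit (-0.38).

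In Mediator deletions, GAP1 stood at 2.65 without SRB8, 2.01 without SIN4, 1.37 without CSE2, 1.30 without SSN2, 0.61 in the library labelled SOH1 and 0.38 without SRB2. SOH1 mRNA was not lowered in the library labelled SOH1, at -0.0042. SRB8 and SSN2 belong to the kinase module of Mediator, SIN4 to its tail. All 6 lay above the reference median, and the difference was 0.98 ± 0.27 (SE, n = 6; limma adjusted p = 0.148), or 1.14 without SOH1 (limma adjusted p = 0.0823). With the library group as a term of the fit it was 1.18 and passed (limma adjusted p = 0.00347), but without SRB8, whose chromosome XI was raised, it was then 1.00 (adjusted p = 0.212), and without SIN4 it was 1.03 (adjusted p = 0.14). DUR1,2 did not go with it: it lay above its reference median in 3 of 6, and its difference was -0.14 ± 0.21 (SE, limma adjusted p = 0.821). DAL2 lay above its reference median in all 5 strains with a value. Its difference was 0.37 ± 0.26 (SE, limma adjusted p = 0.614), and 0.066 with the library group as a term.

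In the EGO and SEA deletions all 3 members lay above their reference medians in all 3 strains. Genes in general also stood higher in this class, with a median difference of 0.14 over all genes. Of the 28 list genes, 20 had a positive difference and 8 a negative one, with a median of 0.24. GAP1 stood at 1.42 without GTR2, 1.28 without MEH1 and 1.31 without MTC5, a difference of 0.93 ± 0.37 (SE, n = 3; limma adjusted p = 0.342). DAL2 stood at 0.60, 1.42 and 0.72, a difference of 0.97 ± 0.33 (limma adjusted p = 0.279). The strains without GTR2 and MEH1 belonged to the fourth library group, where DAL2 was higher. With the library group as a term of the fit, the difference of DAL2 was 0.72 (limma adjusted p = 0.581). That of GAP1 was then 1.04 (limma adjusted p = 0.413). DUR1,2 stood at 0.47, 0.19 and 0.54, a difference of 0.38 ± 0.30 (limma adjusted p = 0.58). All of these values lay within the range of the other deletions, and GAP1 differed least between the strains, with an SD of 0.08. Of the nitrogen list, GDH1 passed the test here and in no other class did a list gene pass. GDH1 stood at 1.21 without GTR2, 0.94 without MEH1 and -0.05 without MTC5, a difference of 1.22 ± 0.23 (SE, n = 3; limma adjusted p = 0.00137). It no longer passed without GTR2 (adjusted p = 0.442) or without MEH1 (adjusted p = 0.204).

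In small subunit deletions GAP1 had a value in 14 of 17 strains, and all 14 lay below the reference median. It ran from -0.72 to 0.29 with a median of -0.05, and the difference was -0.48 ± 0.18 (SE; limma adjusted p = 0.163). With the libraries labelled RPS10B, URE2 and DAL81 kept in, it was -0.14; this adds the library labelled RPS10B to the class and the other named ones to the reference. DUR1,2 lay below the reference median in 13 of 17, with a difference of -0.28 ± 0.13 (limma adjusted p = 0.261), and of -0.090 with the named libraries kept in. DAL2 differed by -0.21 ± 0.15, and by -0.115 with them kept in. With the library group as a term and the named libraries left out, GAP1 differed by -0.39 (limma adjusted p = 0.158). DUR1,2 then differed by -0.24 (limma adjusted p = 0.316) and DAL2 by -0.19 (limma adjusted p = 0.483). Of the 28 list genes, 23 had a negative difference and 5 a positive one, with a median of -0.20 against -0.06 for all genes, and none passed; UGA2 had the smallest adjusted p, 0.0568 (limma), at -0.43 ± 0.13.

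In large subunit deletions DUR1,2 ran from -1.30 without RPL9A to 0.57 without RPP1A, with a median of -0.43. The difference was -0.46 ± 0.14 (SE, n = 14; limma adjusted p = 0.171), and 10 of 14 lay below the reference median. GAP1 and DAL2 differed there by -0.17 ± 0.18 and -0.015 ± 0.16. In endosome to vacuole deletions DUR1,2 ran from -0.44 without VAM7 to 2.26 without VPS8, a difference of 0.51 ± 0.17 (SE, n = 9; limma adjusted p = 0.959), with 6 of 9 above the reference median. Without VPS8 the difference was 0.29. VPS24 mRNA was not lowered in the library labelled VPS24, at 0.87, and without the libraries whose deleted gene was not lowered the difference was 0.73 (limma adjusted p = 0.116). GAP1 differed by 0.0058 ± 0.22 in the same strains. In the mitochondrial class DUR1,2 differed by -0.34 ± 0.16 (SE, n = 10; limma adjusted p = 1), with 8 of 10 below the reference median. None of these differences passed the limma test after adjustment over all genes tested. Before adjustment, the limma p of DUR1,2 was 0.0011 (large subunit), 0.00342 (endosome to vacuole) and 0.0424 (mitochondrial). That of GAP1 was 0.341 (large subunit) and 0.979 (endosome to vacuole), and that of DAL2 0.926 (large subunit). The test does not set a difference against the spread between the strains of its own class.

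**Figure D5:**
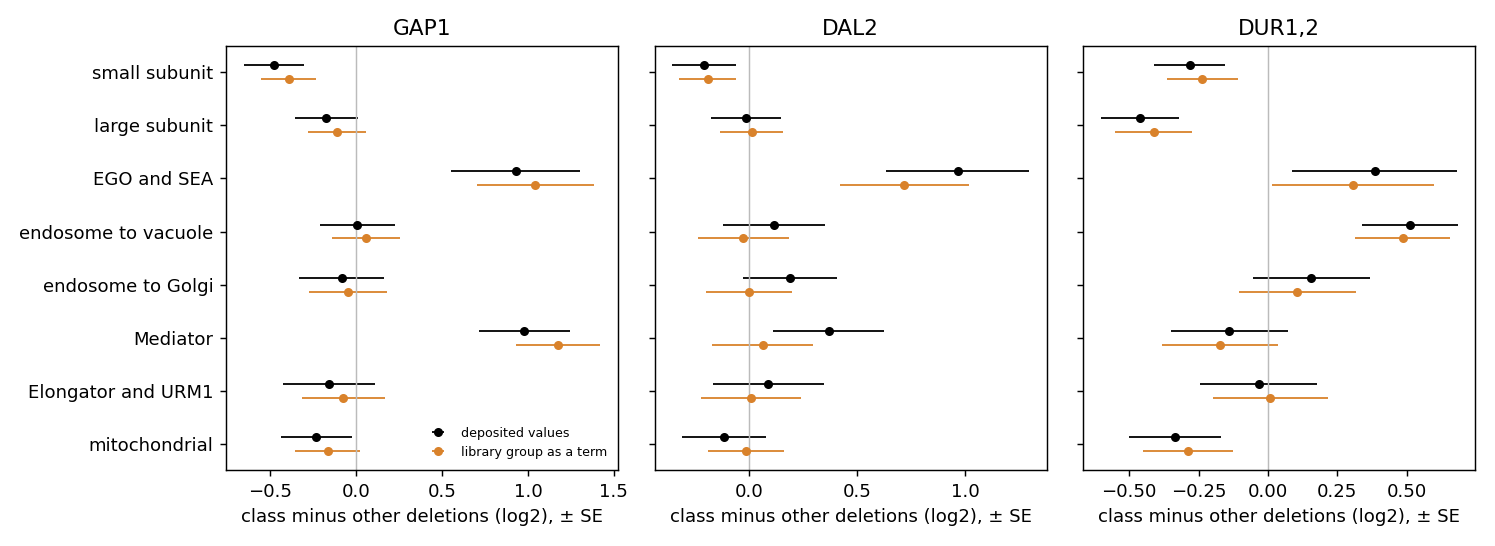
Difference of each class of deletions from the other deletions in log2 ratio, with its standard error, for GAP1, DAL2 and DUR1,2; black points are from the deposited values and orange ones from a fit with the library group as a term. GAP1 in Mediator deletions, at 0.98 and 1.18, and GAP1 and DAL2 in EGO and SEA deletions lie furthest above 0.

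Across the libraries outside the 3 named ones, the members followed each other weakly or not at all. Pearson's r was 0.00 between GAP1 and DAL2 (n = 268 libraries), 0.27 between GAP1 and DUR1,2 (n = 308) and 0.09 between DAL2 and DUR1,2, over the libraries with both values. The library groups raise or lower many genes together, so these are descriptions without a test. The genes most like GAP1 were BMH2 (r = 0.40), QCR8 (0.39), the glutamine synthetase gene GLN1 (0.38), ARP2 (0.37) and DLD3 (0.37), over 310 libraries. After subtracting library group means, GLN1 stood at 0.24 and BMH2 at 0.14.

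The gene most like DUR1,2 was CAR1 (r = 0.47 over 323 libraries), which encodes arginase, the enzyme that makes urea, the substrate of urea amidolyase, from arginine. It stood apart from the next, TDH2 (0.33), HSP60 (0.30), YNL208W (0.30) and RPT5 (0.29), and was 0.45 after subtracting library group means. The genes most like DAL2 were OM45 (0.49) and STF1 (0.49), both of mitochondria, then YIL177C (0.49), YJL225C (0.49) and GPG1 (0.49), over 263 to 282 libraries. YIL177C and YJL225C had the same r and number of libraries and are near-identical copies whose reads cannot be told apart. For DAL2 the median r over all genes was 0.16, against 0.04 for GAP1 and 0.06 for DUR1,2, so its list stands on a higher base; after subtracting library group means OM45 stood at 0.32.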

How the data were processed

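The deposited values are log2 ratios, each strain over the wild type, per the labels and the series design; the base is not written and was taken as 2, because whole-chromosome shifts reach 0.94, above what a doubling gives in natural (0.693) or decimal (0.301) logarithms. Bowtie, a read aligner, is the tool that the submitters' processing notes name; a version, build, counting method and depth normalization were not given in the sources used here. Depth is therefore unknown and no counting interval is given. The authors deposited 2 tables of 255 and 73 libraries; the second, without gene names, was matched to the first by row (r of gene means 0.979 with no offset, at most 0.0463 with others). The 51 unnamed rows were dropped and empty cells kept as missing.

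Classes were compared in 1 limma fit (limma 3.58.1, R 4.3.3, lmFit and eBayes) on the 4499 genes valued in 80% or more of the libraries, with Benjamini-Hochberg adjustment over all of them and a threshold of 0.05. Nothing says that strains of a class are replicates of 1 culture. The p-values set each difference against 1 spread per gene, shared by all strains of the fit, most of them other deletions. A p-value therefore does not tell how far the strains of 1 class differ among themselves. The fit was tested on simulated data, in which constant shifts were added to random sets of the other deletions. Such sets do not copy the library groups or the spread of a real class, and the outcome is not reported here. Library groups came from a Gaussian mixture with 4 components on 4 principal components (scikit-learn 1.9.0). Of 256 libraries whose deleted gene was tested, 207 kept a value for it, and in 49 it was not below -0.5.

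Named genes were the members, the list genes, the 8 highest and 4 lowest genes of each named library, the 5 highest and 5 lowest libraries of each member and the 5 genes most like each; strains of the same complexes and with shifted chromosomes were added after their values were seen. The members, lists and classes were chosen with earlier results of these data known. Alternatives covered centring, reference, variance trend, library groups, the first table alone, and leaving out strains.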

Additional observations from a re-analysis of the deposited data

Results flagged for a closer look

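DUR1,2 in the Elongator and URM1 deletions had 1 library far from the others: it stood at 0.53 without URM1, and the next highest of the 6 was -0.00. URM1 mRNA was not lowered past -0.5 in that library, at -0.24. Of 15 groups of 4 to 10 libraries examined in this way, 1 was set apart, and chance gives about 1 in 20.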

How the results depend on the processing

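No paired analysis was possible because the labels give no replicate numbers and each strain has 1 library. Of the differences of GAP1, DAL2 and DUR1,2 in the 8 classes, GAP1 in Mediator deletions passed the test where the main fit did not: 1.18 with the library group as a term, and 1.18 when each library was also centred on its median. Leaving out 1 strain, it ran from 0.73 to 1.18 without that term, where none passed, and from 1.00 to 1.36 with it. Centring each library turned GAP1 in endosome to vacuole deletions to -0.0085. The library group as a term turned DAL2 in large subunit deletions to 0.014, DAL2 in endosome to vacuole deletions to -0.025 (-0.0246 with centring) and DUR1,2 in Elongator and URM1 deletions to 0.0088 (0.037 with centring). The first table alone turned DAL2 in Elongator and URM1 deletions to -0.056. Without libraries with a shifted chromosome DUR1,2 in endosome to Golgi deletions was -0.039. Without libraries whose deleted gene was not lowered, DAL2 in large subunit deletions was 0.047 and GAP1 in endosome to Golgi deletions 0.043. None of these turned values passed the test in either form, and the cause was not tested. Leaving out 1 strain at a time, the differences that changed sign ran from -0.11 to 0.058 (DAL2, large subunit), -0.091 to 0.065 (GAP1, endosome to vacuole), -0.058 to 0.29 (DAL2, endosome to vacuole), -0.18 to 0.075 (GAP1, endosome to Golgi), -0.0195 to 0.27 (DUR1,2, endosome to Golgi), -0.14 to 0.0101 (DUR1,2, Elongator and URM1) and -0.017 to 0.24 (DAL2, Elongator and URM1), and none passed. GDH1 in EGO and SEA deletions ran from 0.97 to 1.6 and passed only without MTC5.

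As deposited, 5.52% of genes stood at 1 or above in the library labelled URE2, against 3.48% relative to the median of the other libraries and 9.34% with the library centred; for -1 or below the shares were 16%, 7.36% and 7.61%. In that labelled RPS10B, 9.89% stood at 1 or above when centred, and 5.58% (other libraries) and 7.71% (centred) at -1 or below. In that labelled DAL81, 1.66% stood at -1 or below relative to the other libraries. Of the 5 genes most like each member, 3 of those of GAP1 stayed with the named libraries included, 0 after subtracting library group means and 3 with Spearman's rho; for DAL2 the numbers were 3, 1 and 2, and for DUR1,2 they were 2, 2 and 2. Restricting the fit to genes with a value in every library gave no value for the members, which have empty cells. Library groups combined with centring and leaving out single strains of larger classes were chosen after seeing the data.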
